A study of Arabidopsis thaliana with 24 samples.

Results

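The transcripts described here come from the chloroplast genome of Arabidopsis thaliana and were read in libraries made from poly(A)-selected RNA. The members are the chloroplast rows of the deposited count table whose counts sum to at least 24 over the 24 libraries. There are 100 of them among 133 chloroplast rows and 32833 genes in all. The 33 chloroplast rows left out hold 262 counts together, against 230598 counts for the members. Just inside the threshold were trnQ with 24 counts and trnI (ATCG01200) with 26, and just outside it were ndhB (ATCG01250) and trnI (ATCG00930) with 20 counts each. These trnI rows have identical sequence, so the threshold split a pair of copies.

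Whole seedlings of 3 genotypes in the Col-0 background were grown on MS medium. The title of the series names UAP1 as a factor of RNA splicing with a part in the response to cold. The groups were uap1-1 after 24 h at 4 °C, uap1-1 without cold, uap1-2 after the same cold, uap1-2 without cold, wild type (WT) after the same cold and WT without cold, with 4 libraries each that the labels call independent biological replicates. Both mutants are homozygous T-DNA insertion lines, and the mutated gene itself was not analysed here. On age the labels conflict, since seedlings went into the cold at 11 days and were harvested at 12 days by one text and were 10 days old by another. Library totals ran between 19289385 and 25501547 counts, of which 3663 to 25896 were counts of chloroplast members. The 8 root markers and the nuclear photosynthesis genes RBCS1A, PSBO1 and PSAD1, used to check the tissue label, were detected in all 6 groups. Most of the root marker signal came from PHO1, SCR and SHR, and RHD6, MYB36, WER, IRT1 and EXPA7 were lower in every group. IRT1 and EXPA7 were close to 0 in some libraries.

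The chloroplast genome keeps genes for subunits of the photosynthetic complexes, of the ribosome and of an RNA polymerase of bacterial type, while most other subunits of the same complexes come from the nucleus. Its genes are read by that plastid-encoded polymerase and by a nuclear-encoded polymerase of phage type, often as long transcripts of several genes that are then cut and trimmed. In plastids an A-rich tail marks an RNA for decay, unlike the stable tail of nuclear mRNAs. A level measured after oligo(dT) selection is therefore the level of a transcript among captured fragments, not its level in the chloroplast. In RNA from whole seedlings, fewer chloroplast-bearing cells and less chloroplast RNA per cell cannot be told apart.

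Runs of A within an RNA can also pair with oligo(dT), so the longest run of A in each gene or in the 200 bases after it was read from the RefSeq chloroplast genome (TAIR10.1), which gives the same start and end for 123 of the 133 rows. The windows of 30 bases below show that run in capitals for the 3 members with the most counts per length, for rbcL among the most counted, and for rpoA with a longer run and few counts. They are written 5′ to 3′ on the sense strand.
rpl32, Pt:113656-113685, plus strand: taaatacatctAAAAAAAAtaggaagcaaa
psaJ, Pt:67216-67245, plus strand: agtaatagaacgAAAAAAAgtgttgctagg
psbM, Pt:28665-28694, minus strand: tttactatcAAAAAAAAAAAAAgatttcaa
rbcL, Pt:56530-56559, plus strand: aatttagatagAAAAAAAActcttcaataa
rpoA, Pt:78087-78116, minus strand: aacctaagAAAAAAAAAAAAAAcaaaagaa

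The runs of rpl32, psaJ, psbM and rbcL lie after the end of the gene, that of rpoA inside it. Transcript ends were not used, so a run after the end of a gene need not lie in its RNA. Members with longer runs tended to have lower levels per length: over the 75 protein-coding members Spearman's rho between the longest run and the mean FPKM (fragments scaled to length and library size, as deposited) was -0.348. With counts per kilobase after adding 250 bases, an assumed fragment length, to each length it was -0.247. Exonic length itself gave a rho of -0.329 with the mean FPKM and -0.087 with the second measure. These are descriptions across genes of the same libraries, which also differ in length and base composition. In the psbM and rpoA windows, picked after values were seen, similar runs of 13 and 14 A stand beside unlike levels. The mean was 110.5 FPKM for psbM and 1.75 FPKM for rpoA.

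Promoters used by the plastid-encoded polymerase carry boxes like those of bacteria. The letters TTGACA followed by TANNNT after 16 to 19 bases were searched on the sense strand in the 250 bases before each protein-coding member. They were found before 2 of 75 (2.7%), psbA and ycf1 (ATCG01130), and in 0.89% of 1234 windows of that length over the chloroplast genome. The psbA match is shown with both boxes in capitals, and its first base lies 115 bases before the gene.
psbA boxes, Pt:1530-1559, minus strand: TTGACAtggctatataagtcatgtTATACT

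The 3 tRNA genes below had large changes in the cold and are shown whole, with the anticodon in capitals. trnF carries phenylalanine, trnY tyrosine and trnT threonine.
trnF, Pt:48175-48247, plus strand: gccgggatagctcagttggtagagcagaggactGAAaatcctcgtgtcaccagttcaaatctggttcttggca
trnY, Pt:30323-30406, minus strand: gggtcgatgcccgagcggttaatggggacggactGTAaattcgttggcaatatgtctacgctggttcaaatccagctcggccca
trnT (ATCG00390), Pt:46213-46285, minus strand: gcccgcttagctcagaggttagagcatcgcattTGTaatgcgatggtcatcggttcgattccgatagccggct

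A few genes held a large part of the captured chloroplast RNA. psbA (Pt:383-1444, minus strand), the D1 protein of photosystem II, held 9.99% of all member counts. rpl32 (Pt:113449-113607, plus strand), a protein of the large ribosomal subunit, held 8.91%, and rbcL (Pt:54958-56397, plus strand), the large subunit of Rubisco, 8.84%. rpoB (Pt:23111-26329, minus strand), a core subunit of the plastid-encoded polymerase, held 6.6%, psaJ (Pt:66929-67063, plus strand), a small photosystem I subunit, 4.84%, and psaA (Pt:39605-41857, minus strand), a photosystem I reaction centre protein, 4.61%. Per length the order was another one. rpl32 led with a mean of 247 FPKM, then psaJ with 157, psbM with 110.5 and psbA with 42.1, while psaA and rpoB had 9.21 FPKM each. With 250 bases added to each length rpl32 and psaJ stayed first and second, and psbA passed psbM. By role, photosystem II genes held 23% of the member counts, genes of the large ribosomal subunit 13%, photosystem I 12%, ATP synthase 10.0%, the plastid polymerase 8.71%, rRNA 4.39% and tRNA 3.34%.

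Some rows cannot be assigned with certainty. The inverted repeat gives 18 pairs of rows with identical sequence, and counts were often unequal, as for rrn23S with 4978 counts in one copy (ATCG01180) and 2538 in the other (ATCG00950). Over 50% of the 31-base words recur within the chloroplast genome in 28 of the 33 rows left out, against 9 of the 100 members. Low counts of such rows need not mean low levels, and the part of repeated sequence in them was not tested. Of the 31-base words of psbA 15.7%, and of those of rbcL 21.3%, also occur in the mitochondrial genome, while 50 members have no word elsewhere. Each such word of trnY also occurs in the nuclear genome, so its reads cannot be assigned to the chloroplast by sequence. The genes atpB and atpE, psbC and psbD, rps3 and rpl22, and matK and trnK overlap on the same strand. No label says whether reads were counted by strand, so reads from overlapping antisense RNA could not be told apart. trnS (ATCG00290) lies on the plus strand in the deposited table and on the minus strand in RefSeq.

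Chloroplast members took a lower mean share of the library after cold in each genotype. The share was 0.0339%, 0.0293%, 0.0226% and 0.0269% in the uap1-1 cold libraries, against 0.109%, 0.0386%, 0.0837% and 0.0504% in uap1-1 control. In uap1-2 it was 0.0292%, 0.0382%, 0.0223% and 0.0217% in the cold, against 0.0878%, 0.0385%, 0.107% and 0.0637% in control. The cold libraries of both mutants all lay below the control libraries of the same line, though replicate 2 of each mutant control came close to them.
In WT the share was 0.0234%, 0.0288%, 0.0232% and 0.0189% in the cold, against 0.0447%, 0.0373%, 0.0278% and 0.0626% in control. The WT groups overlapped, with the cold library lower in 15 of 16 pairs. The mean share was 0.0282% ± 0.00472 in uap1-1 cold and 0.0704% ± 0.0319 in uap1-1 control, 0.0278% ± 0.00767 in uap1-2 cold and 0.0742% ± 0.0295 in uap1-2 control, and 0.0236% ± 0.00406 in WT cold and 0.0431% ± 0.0147 in WT control (SD, n = 4 each). The ratio of cold to control means was 0.4 in uap1-1, 0.375 in uap1-2 and 0.548 in WT.

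The separation of the groups depended on scaling. After TMM scaling, which corrects library totals for differences in composition, the member total was 328 ± 68.1 CPM (a count scaled to a common library size) in uap1-1 cold and 594 ± 237 CPM in uap1-1 control. It was 289 ± 78.5 CPM in uap1-2 cold and 685 ± 317 CPM in uap1-2 control, and 262 ± 48.1 CPM in WT cold and 419 ± 144 CPM in WT control (SD, n = 4 each). On that scale the groups overlapped in all 3 genotypes, with cold lower in 14 of 16 pairs in uap1-1, 15 in uap1-2 and 13 in WT. The sum over the members was not tested.

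**Figure D1:**
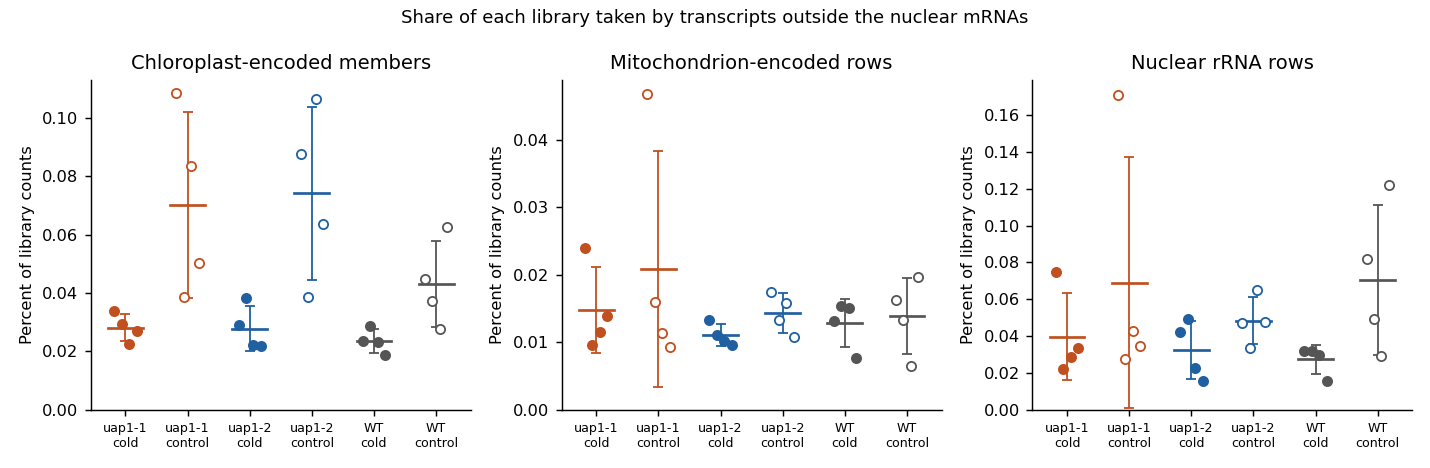
Percent of library counts taken by chloroplast members, mitochondrial rows and nuclear rRNA rows in the 6 groups; points are libraries, with mean ± SD (n = 4), filled points cold and open points control. The cold groups have the lower chloroplast means, from 0.0236% to 0.0282%.

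Other RNA outside the nuclear mRNAs varied too. Mitochondrial rows took 0.0148% ± 0.00642 in uap1-1 cold and 0.0208% ± 0.0175 in uap1-1 control, 0.0111% ± 0.00162 in uap1-2 cold and 0.0143% ± 0.00291 in uap1-2 control, and 0.0128% ± 0.00357 in WT cold and 0.0139% ± 0.00556 in WT control (SD, n = 4 each). Nuclear rRNA rows took 0.0398% ± 0.0237 in uap1-1 cold and 0.0689% ± 0.0681 in uap1-1 control, 0.0324% ± 0.016 in uap1-2 cold and 0.0484% ± 0.0129 in uap1-2 control, and 0.0273% ± 0.00781 in WT cold and 0.0706% ± 0.0407 in WT control (SD, n = 4 each). Both measures overlapped between cold and control in each genotype. Replicate 1 of uap1-1 control had the highest chloroplast, mitochondrial (0.0467%) and nuclear rRNA (0.171%) shares of its group. The part of these differences between libraries in the chloroplast share was not tested.

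Gene by gene, called changes in the cold were almost all falls. In uap1-1, 31 of the 86 members tested fell and 0 rose, where 29.2% of all 21428 genes tested fell and 26.7% rose. In uap1-2, 48 members fell and 0 rose, against 26% and 26.5% of all genes. In WT, 11 fell and 1 rose, against 28.4% and 25.8% (edgeR quasi-likelihood test, adjusted p under 0.05; 14 of the 100 members had too few counts to be tested). The share of members that fell was near the background in uap1-1, above it in uap1-2 and below it in WT. The share that rose was below it in each genotype. The counts of falls depended on which libraries were kept, as given below. Members of a library share the same chloroplast total, so their calls are not independent of each other. The same shares of all genes are the background for the counts by role below. The median log2 fold change of the tested members was -0.97 in uap1-1, -1.19 in uap1-2 and -0.66 in WT, against -0.07, -0.01 and -0.06 over all genes.
The cold libraries all lay below the control libraries for 19 of the 100 members in uap1-1 (background 24.9% of the genes tested), 22 in uap1-2 (23.9%) and 4 in WT (22.4%). The 100 include 14 members that were not tested. These counts were close to the background in the mutants and below it in WT. Without control replicates 1 and 3, which had the highest chloroplast shares of each mutant, 4 members were called in uap1-1 and 12 in uap1-2. That setting was chosen after seeing the data. With library totals in place of TMM, 59 members were called in uap1-1, 58 in uap1-2 and 18 in WT. Leaving out uap1-1 cold replicate 3 or control replicate 3 gave 20 and 17 calls in uap1-1, and leaving out WT control replicate 3 or 4 gave 19 and 6 in WT.

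**Figure D2:**
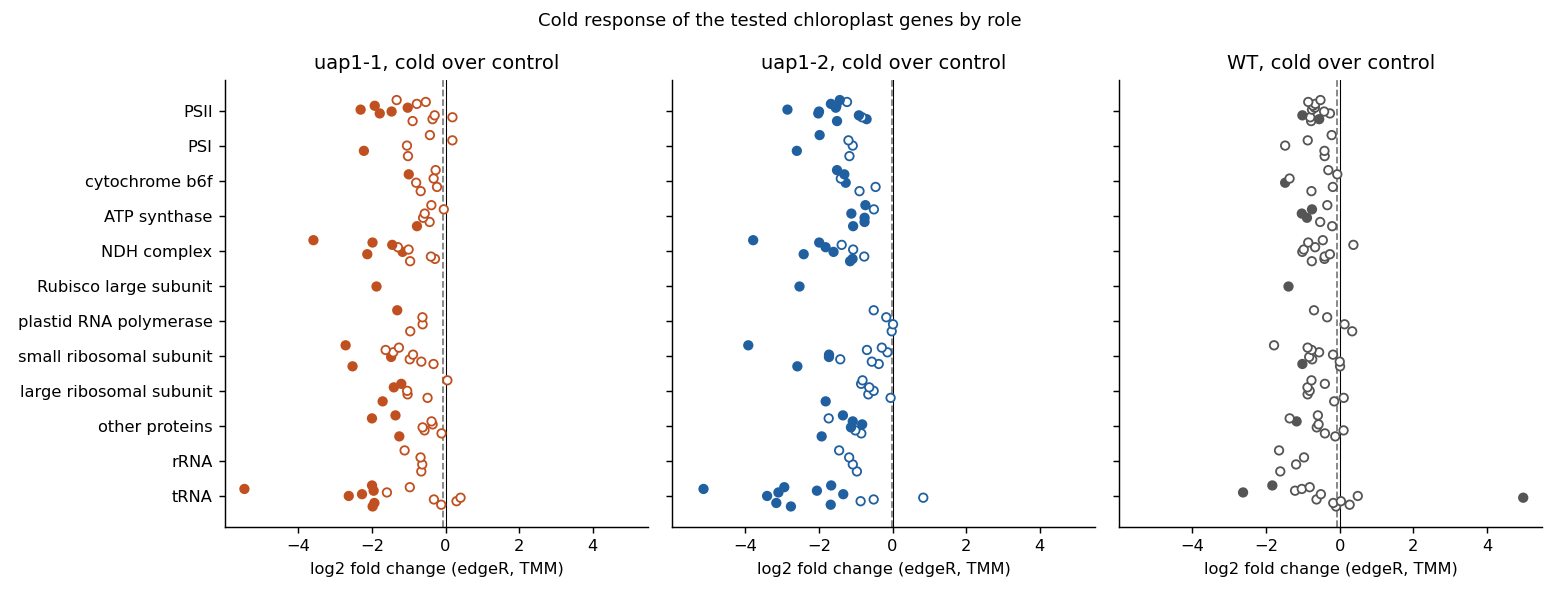
Log2 fold change, cold over control, of the 86 tested members by role in uap1-1, uap1-2 and WT; filled points passed the edgeR test (adjusted p under 0.05) and the dashed line is the median of all genes tested. Most points lie left of 0, trnF is the point farthest left in both mutants (-5.46 and -5.13) and the only filled point right of 0 is trnY in WT.

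Among photosystem I genes, psaA had 11.7, 6.42, 7.35 and 13.3 CPM in uap1-1 cold, against 76.5, 16, 48.1 and 38.5 CPM in uap1-1 control. In uap1-2 it had 6.45, 9.75, 5.33 and 3.65 CPM in the cold, against 48.2, 13.2, 66.6 and 24.2 CPM in control. In WT it had 5.66, 5.51, 8.01 and 7.64 CPM in the cold, against 9.52, 5.41, 4.77 and 16 CPM in control. The groups of both mutants were apart, and those of WT overlapped. The log2 fold change by edgeR was -2.22 (SE 0.48, adjusted p = 0.000463) in uap1-1, -2.60 (SE 0.49, adjusted p = 0.000114) in uap1-2 and -0.41 (SE 0.47, adjusted p = 0.482) in WT.
psaJ averaged 21.9 ± 13.2 CPM in uap1-1 cold and 19.2 ± 8.19 CPM in uap1-1 control, 12 ± 4.49 CPM in uap1-2 cold and 27.6 ± 14.4 CPM in uap1-2 control, and 17.2 ± 10.2 CPM in WT cold and 31.5 ± 23.1 CPM in WT control (SD, n = 4 each). It passed the edgeR test in no genotype (adjusted p = 0.798 in uap1-1, 0.0847 in uap1-2 and 0.206 in WT). Of the 5 photosystem I genes, 1 in uap1-1, 2 in uap1-2 and 0 in WT fell.
Of 14 photosystem II genes 12 were tested, and 5 in uap1-1, 10 in uap1-2 and 2 in WT fell. Their median log2 fold changes were -0.96 in uap1-1, -1.52 in uap1-2 and -0.70 in WT. psbA ranged over 18 to 59.1 CPM in uap1-1 cold and 25.4 to 137 CPM in uap1-1 control, 13.3 to 34.3 CPM in uap1-2 cold and 24.6 to 155 CPM in uap1-2 control, and 13 to 33.6 CPM in WT cold and 14.6 to 67.8 CPM in WT control. Its groups overlapped in every genotype. It passed the edgeR test in uap1-2 at -1.51 (SE 0.59, adjusted p = 0.0347), but not without uap1-2 cold replicate 3 (adjusted p = 0.0839), cold replicate 4 (adjusted p = 0.0992) or control replicate 3 (adjusted p = 0.269). psbB, the CP47 antenna of photosystem II, averaged 11 ± 4.78 CPM in uap1-1 cold and 18.8 ± 5.49 CPM in uap1-1 control, 7.63 ± 2.28 CPM in uap1-2 cold and 24.4 ± 13.6 CPM in uap1-2 control, and 8.34 ± 1.56 CPM in WT cold and 13.2 ± 6.01 CPM in WT control (SD, n = 4 each). Its log2 fold change by edgeR was -0.78 (SE 0.38, adjusted p = 0.0895) in uap1-1, -1.67 (SE 0.39, adjusted p = 0.00104) in uap1-2 and -0.66 (SE 0.39, adjusted p = 0.156) in WT.
The neighbouring genes psbD, psbC and psbZ code for the D2 protein, the CP43 antenna and a small subunit of photosystem II. All 3 fell in both mutants, with a median of -1.78 in uap1-1 and -2.02 in uap1-2, and 0 of 3 passed in WT with a median of -0.42.

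rbcL had 25.2, 13.2, 10.7 and 21 CPM in uap1-1 cold, against 109, 30.8, 82.1 and 38.3 CPM in uap1-1 control. It had 17.4, 27.4, 6.1 and 7.17 CPM in uap1-2 cold, against 95.3, 28, 172 and 41.1 CPM in uap1-2 control. In WT it had 10.0, 14.2, 8.6 and 10.2 CPM in the cold, against 34.4, 14.5, 13 and 51.2 CPM in control. The groups were apart in both mutants, narrowly so in uap1-2, and overlapped in WT. The log2 fold change by edgeR was -1.89 (SE 0.57, adjusted p = 0.00685) in uap1-1, -2.54 (SE 0.58, adjusted p = 0.000796) in uap1-2 and -1.39 (SE 0.56, adjusted p = 0.041) in WT. The WT call was lost without WT cold replicate 1, 3 or 4 or WT control replicate 1 or 4 (adjusted p = 0.0755 to 0.185). Without control replicates 1 and 3 rbcL did not pass in uap1-1 or in uap1-2 (adjusted p = 0.21 and 0.0829).

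The NDH complex carries electrons around photosystem I, and 5 in uap1-1, 7 in uap1-2 and 0 in WT of its 10 chloroplast genes fell. ndhH (Pt:122011-123192, minus strand), a subunit of that complex, had 4, 3, 5 and 1 counts in uap1-1 cold, against 76, 19, 80 and 41 in uap1-1 control. It had 5, 4, 3 and 3 counts in uap1-2 cold, against 80, 24, 129 and 21 in uap1-2 control, and 1, 9, 5 and 1 counts in WT cold, against 3, 4, 2 and 15 in WT control. Each mutant control library stood above all libraries of the other 4 groups, and the WT groups overlapped. In CPM this was 0.183 ± 0.108 in uap1-1 cold and 2.21 ± 1.1 in uap1-1 control, 0.181 ± 0.0483 in uap1-2 cold and 2.56 ± 2.14 in uap1-2 control, and 0.195 ± 0.182 in WT cold and 0.27 ± 0.266 in WT control (SD, n = 4 each). The log2 fold change by edgeR was -3.58 (SE 0.73, adjusted p = 0.000249) in uap1-1, -3.78 (SE 0.72, adjusted p = 0.000123) in uap1-2 and -0.46 (SE 0.79, adjusted p = 0.648) in WT.
rps15, a small-subunit ribosomal protein gene next to ndhH, had 0, 5, 0 and 0 counts in uap1-1 cold, against 12, 3, 17 and 12 in uap1-1 control. In uap1-2 it had 0, 2, 1 and 0 counts in the cold, against 20, 5, 20 and 17 in control, a ratio of cold to control of 0.0586 (95% counting interval 0.0118 to 0.179). In WT it had 1, 0, 0 and 0 counts in the cold and 0, 1, 2 and 2 in control, too few to compare.

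**Figure D3:**
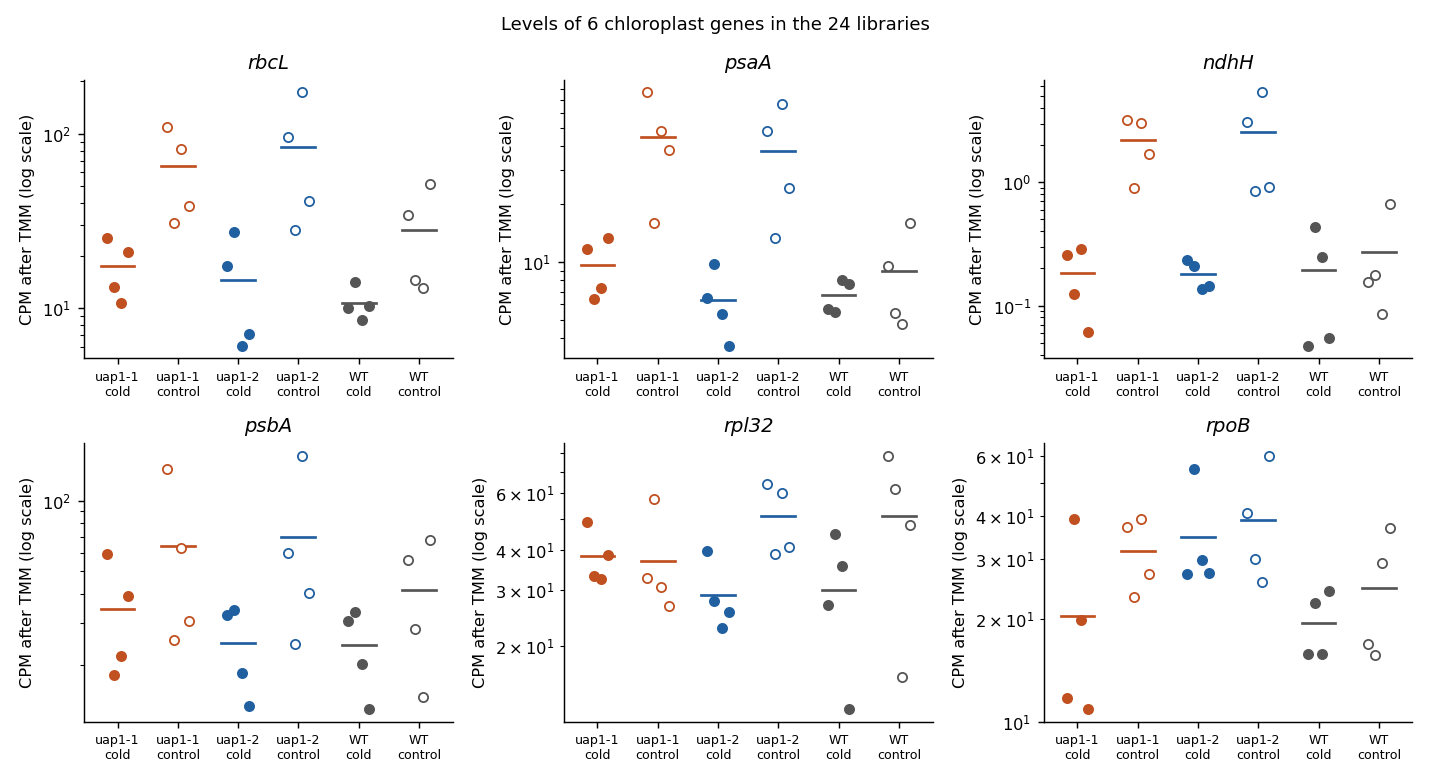
Level in CPM after TMM scaling (log axis) of rbcL, psaA, ndhH, psbA, rpl32 and rpoB in the 24 libraries; lines are group means (n = 4), filled points cold, open points control. For rbcL, psaA and ndhH the mutant controls lie above the cold libraries of the same line, with ndhH means of 2.21 and 2.56 CPM in uap1-1 and uap1-2 control, while psbA, rpl32 and rpoB overlap in every genotype.

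The cytochrome b6f complex links the photosystems, and 1 in uap1-1, 3 in uap1-2 and 1 in WT of its 6 chloroplast genes fell. petL, a small subunit, averaged 1.02 ± 0.14 CPM in uap1-1 cold and 1.78 ± 0.712 CPM in uap1-1 control, 0.912 ± 0.509 CPM in uap1-2 cold and 2.21 ± 0.661 CPM in uap1-2 control, and 0.768 ± 0.378 CPM in WT cold and 2.16 ± 0.959 CPM in WT control (SD, n = 4 each). Its log2 fold change by edgeR was -0.80 (SE 0.42, adjusted p = 0.115) in uap1-1, -1.27 (SE 0.42, adjusted p = 0.0146) in uap1-2 and -1.48 (SE 0.43, adjusted p = 0.00583) in WT, where the uap1-2 call was lost without uap1-2 cold replicate 3 (adjusted p = 0.056). Of 6 ATP synthase genes, 1 in uap1-1, 5 in uap1-2 and 3 in WT fell. atpB, a subunit of the catalytic head, had 17.6 ± 3 CPM in uap1-1 cold and 22.9 ± 6.3 CPM in uap1-1 control, 14.5 ± 1.93 CPM in uap1-2 cold and 24.1 ± 4.45 CPM in uap1-2 control, and 16.1 ± 1.6 CPM in WT cold and 20.3 ± 3.05 CPM in WT control (SD, n = 4 each). Its fall passed the test in uap1-2, at -0.74 (SE 0.18, adjusted p = 0.00146) by edgeR, and not in uap1-1 or WT (adjusted p = 0.0721 and 0.12). petA, the cytochrome f of the b6f complex, averaged 4.76 ± 1.57 CPM in uap1-1 cold and 5.6 ± 1.36 CPM in uap1-1 control, 3.94 ± 0.434 CPM in uap1-2 cold and 5.43 ± 2.21 CPM in uap1-2 control, and 4.05 ± 1.1 CPM in WT cold and 4.6 ± 1.38 CPM in WT control (SD, n = 4 each), and did not pass in any genotype (adjusted p = 0.519 in uap1-1, 0.194 in uap1-2 and 0.62 in WT by edgeR). atpA, another subunit of the catalytic head, changed by -0.77 (SE 0.26, adjusted p = 0.0158) in uap1-1, -1.07 (SE 0.26, adjusted p = 0.00162) in uap1-2 and -0.20 (SE 0.26, adjusted p = 0.537) in WT, where the uap1-1 call was lost without uap1-1 control replicate 1 (adjusted p = 0.0908) or 3 (adjusted p = 0.0514).
Among the remaining protein genes, cemA, a protein of the inner envelope, averaged 12.3 ± 2.14 CPM in uap1-1 cold and 15.7 ± 4.14 CPM in uap1-1 control, 12.8 ± 2.12 CPM in uap1-2 cold and 22.7 ± 8.91 CPM in uap1-2 control, and 11.5 ± 4.74 CPM in WT cold and 17.1 ± 6.09 CPM in WT control (SD, n = 4 each), a log2 fold change by edgeR of -0.35 (SE 0.31, adjusted p = 0.355) in uap1-1, -0.82 (SE 0.31, adjusted p = 0.0312) in uap1-2 and -0.57 (SE 0.31, adjusted p = 0.131) in WT, where the uap1-2 call was lost without uap1-2 cold replicate 3 or 4 or control replicate 1 or 4 (adjusted p = 0.0621 to 0.141). accD, a subunit of acetyl-CoA carboxylase in fatty acid synthesis, averaged 0.53 ± 0.206 CPM in uap1-1 cold and 0.78 ± 0.491 CPM in uap1-1 control, 0.472 ± 0.243 CPM in uap1-2 cold and 0.963 ± 0.552 CPM in uap1-2 control, and 0.612 ± 0.177 CPM in WT cold and 0.564 ± 0.39 CPM in WT control (SD, n = 4 each), and passed in no genotype (adjusted p = 0.391 in uap1-1, 0.123 in uap1-2 and 0.884 in WT). matK, a maturase for introns of group II, averaged 3.46 ± 0.714 CPM in uap1-1 cold and 8.21 ± 5.45 CPM in uap1-1 control, 2.79 ± 1.35 CPM in uap1-2 cold and 10.6 ± 8.05 CPM in uap1-2 control, and 2.59 ± 0.722 CPM in WT cold and 2.81 ± 1.07 CPM in WT control (SD, n = 4 each). Its log2 fold change by edgeR was -1.25 (SE 0.50, adjusted p = 0.0369) in uap1-1, -1.92 (SE 0.51, adjusted p = 0.00282) in uap1-2 and -0.12 (SE 0.51, adjusted p = 0.865) in WT, where the uap1-1 call was lost without any 1 of the 4 cold libraries except replicate 3 and without control replicate 1 or 3 (adjusted p = 0.0613 to 0.224). clpP, a subunit of the plastid Clp protease, averaged 10.2 ± 2.86 CPM in uap1-1 cold and 13.3 ± 2.62 CPM in uap1-1 control, 8.11 ± 3.3 CPM in uap1-2 cold and 17.1 ± 6.76 CPM in uap1-2 control, and 5.9 ± 2.14 CPM in WT cold and 13.3 ± 5.61 CPM in WT control (SD, n = 4 each). Its log2 fold change by edgeR was -0.38 (SE 0.34, adjusted p = 0.346) in uap1-1, -1.08 (SE 0.34, adjusted p = 0.00997) in uap1-2 and -1.17 (SE 0.34, adjusted p = 0.00605) in WT, where the uap1-2 call was lost without uap1-2 control replicate 1 (adjusted p = 0.0613).

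The genes of the plastid's own gene expression machinery changed unevenly. Of the 4 genes for the plastid-encoded polymerase, 1 in uap1-1, 0 in uap1-2 and 0 in WT fell. rpoB had 20.4 ± 13.2 CPM in uap1-1 cold and 31.7 ± 7.72 CPM in uap1-1 control, 34.8 ± 13.5 CPM in uap1-2 cold and 39.1 ± 15.4 CPM in uap1-2 control, and 19.5 ± 4.34 CPM in WT cold and 24.6 ± 10.2 CPM in WT control (SD, n = 4 each). It passed the edgeR test in no genotype (adjusted p = 0.152 in uap1-1, 0.719 in uap1-2 and 0.454 in WT). Of 12 genes for the small ribosomal subunit 10 were tested, and 3 in uap1-1, 4 in uap1-2 and 1 in WT fell. Of 9 for the large subunit 7 were tested, and 3 in uap1-1, 1 in uap1-2 and 0 in WT fell. rpl32 had 48.8, 33.2, 32.4 and 38.4 CPM in uap1-1 cold, against 32.6, 57.6, 30.6 and 26.8 CPM in uap1-1 control, and its groups overlapped there and in the other genotypes. Its log2 fold changes by edgeR were 0.05 (SE 0.37, adjusted p = 0.919) in uap1-1, -0.81 (SE 0.37, adjusted p = 0.0689) in uap1-2 and -0.76 (SE 0.37, adjusted p = 0.0856) in WT.
A list of 5 members known for transcription by the nuclear-encoded polymerase held accD, rpoB, rpoC1, rpoC2 and ycf1. It is not complete and leaves out clpP, whose changes are given above. Its rpo genes stand in the same transcription unit, and ycf1 (ATCG01130) had the promoter boxes searched for above. The median log2 fold changes of the list were -0.63 in uap1-1, -0.17 in uap1-2 and 0.11 in WT. Of its members 1 in uap1-1, 1 in uap1-2 and 0 in WT fell. Of the 26 psa, psb, pet and rbcL members 24 were tested, with medians of -0.84 in uap1-1, -1.42 in uap1-2 and -0.70 in WT. Of these, 8 in uap1-1, 16 in uap1-2 and 4 in WT fell. The difference between these lists was not tested. Of the 5 rRNA members 4 were tested, and 0 passed in any genotype. The rrn23S row (ATCG01180) averaged 8.16 ± 5.97 CPM in uap1-1 cold and 13 ± 11.3 CPM in uap1-1 control, 6.51 ± 4.55 CPM in uap1-2 cold and 14.7 ± 13.9 CPM in uap1-2 control, and 4.68 ± 2.38 CPM in WT cold and 9.17 ± 6.89 CPM in WT control (SD, n = 4 each).

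Of the 20 tRNA members 13 were tested, and 7 in uap1-1, 10 in uap1-2 and 2 in WT fell, while trnY rose in WT. The tRNA genes shown above are 73 to 84 bases long. Whether reads on tRNA rows came from mature tRNAs or from longer transcripts was not tested. trnF had 3, 1, 0 and 1 counts in uap1-1 cold, against 72, 7, 206 and 46 in uap1-1 control. It had 6, 3, 2 and 2 counts in uap1-2 cold, against 134, 14, 382 and 25 in uap1-2 control, and 0, 6, 4 and 3 counts in WT cold, against 10, 9, 3 and 7 in WT control. The groups were apart in both mutants, with control libraries that differed widely among themselves, and overlapped in WT. The log2 fold change by edgeR was -5.46 (SE 1.16, adjusted p = 0.000375) in uap1-1, -5.13 (SE 1.02, adjusted p = 0.000203) in uap1-2 and -1.02 (SE 1.14, adjusted p = 0.463) in WT.
trnY had 9, 31, 27 and 6 counts in WT cold, against 0, 0, 0 and 2 in WT control, a ratio of 39.7 (95% counting interval 10.6 to 334; adjusted p = 0.00126 by edgeR). It had 28, 7, 9 and 8 counts in uap1-1 cold, against 12, 1, 40 and 4 in uap1-1 control, and 22, 10, 13 and 24 counts in uap1-2 cold, against 18, 3, 23 and 2 in uap1-2 control. Its sequence also stands in the nuclear genome, so these counts may include nuclear reads, which was not tested. The WT groups were apart, and those of the mutants overlapped and were not called (adjusted p = 0.689 and 0.401). trnT (ATCG00390) fell in uap1-2, at -3.10 (SE 0.86, adjusted p = 0.00437), and in WT, at -2.62 (SE 0.86, adjusted p = 0.0132), where the call was lost without WT control replicate 1 (adjusted p = 0.072).

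When each gene was measured against the chloroplast total of its library, fewer changes were called. In uap1-1, 5 members fell (ndhH, psaA, rbcL, trnF and trnS (ATCG00290)) and 0 rose, where 4.97% of all genes fell and 34% rose on that scale. In uap1-2, 10 fell, among them the same 5, and trnY rose, against 2.73% and 51.9% of all genes. In WT, 0 fell and trnY rose, against 5.79% and 26.1%. On this log2 scale the median of all genes was 0.66 in uap1-1, 1.06 in uap1-2 and 0.51 in WT, and that of the members -0.06 in uap1-1, 0.00 in uap1-2 and 0.04 in WT. Dividing by the chloroplast total, which was lower on average in the cold, moves the other genes upward and keeps the members centred near 0. The share of all genes that fell is therefore no yardstick for the members here, and no comparison with it is drawn. Adjusted p values on this scale were also computed over all genes, so the many calls of shifted genes ease the cutoff for members. At an unadjusted p under 0.05 by edgeR there were 9 of the 86 tested members in uap1-1, 14 in uap1-2 and 2 in WT. The trnS (ATCG00290) call in uap1-1 was lost without any 1 of cold replicates 1, 3 and 4 and control replicates 1 and 3 (adjusted p = 0.0673 to 0.147).
As a share of the chloroplast total, rbcL was 5.22% ± 1.17 in uap1-1 cold and 10.3% ± 2.18 in uap1-1 control, 4.61% ± 2.04 in uap1-2 cold and 11% ± 3.92 in uap1-2 control, and 4.16% ± 0.847 in WT cold and 6.34% ± 2.29 in WT control (SD, n = 4 each). The log2 fold change within the total by edgeR was -0.99 (SE 0.39, adjusted p = 0.0379) in uap1-1, -1.25 (SE 0.39, adjusted p = 0.00628) in uap1-2 and -0.61 (SE 0.39, adjusted p = 0.231) in WT. The uap1-1 call was lost without uap1-1 cold replicate 2 or 3 or control replicate 1 or 3 (adjusted p = 0.0841 to 0.113).
psaA held 2.78%, 2.08%, 2.87% and 4.06% of the chloroplast total in uap1-1 cold, against 8.57%, 4.08%, 7.12% and 9.24% in uap1-1 control. It held 2.02%, 2.53%, 2.34% and 1.65% in uap1-2 cold, against 6.21%, 3.88%, 6.18% and 4.47% in uap1-2 control. In WT it held 2.14%, 1.74%, 2.99% and 3.85% in the cold, against 1.84%, 1.44%, 2.02% and 2.9% in control. Each mutant control lay above the cold libraries of the same line, and the WT groups overlapped. The log2 fold change within the total by edgeR was -1.30 (SE 0.39, adjusted p = 0.00645) in uap1-1, -1.28 (SE 0.39, adjusted p = 0.00528) in uap1-2 and 0.38 (SE 0.39, adjusted p = 0.479) in WT.
Within the total ndhH changed by -2.66 (SE 0.69, adjusted p = 0.00168) in uap1-1, -2.37 (SE 0.67, adjusted p = 0.00292) in uap1-2 and 0.22 (SE 0.72, adjusted p = 0.843) in WT. For trnF the change was -4.55 (SE 0.87, adjusted p = 3.2e-05) in uap1-1, -3.51 (SE 0.77, adjusted p = 0.000177) in uap1-2 and -0.38 (SE 0.81, adjusted p = 0.758) in WT. Without control replicates 1 and 3, 3 members were called in uap1-1 (ndhH, trnF and trnY) and 1 in uap1-2 (trnY).

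**Figure D4:**
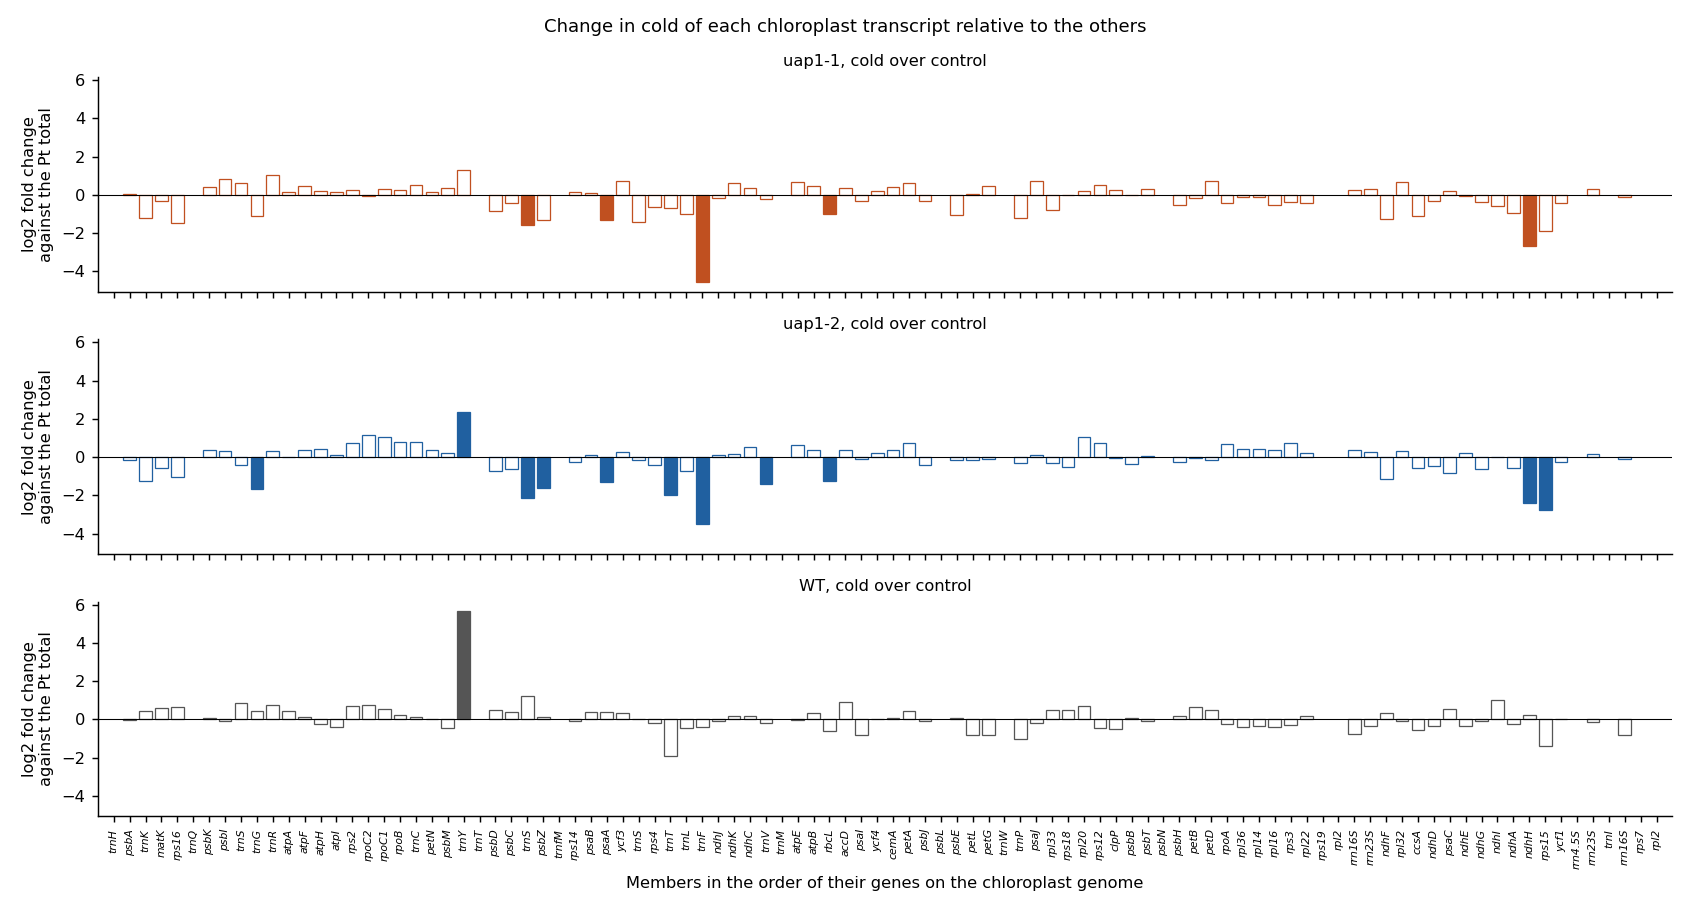
Log2 fold change, cold over control, relative to the chloroplast total in uap1-1, uap1-2 and WT, with most of the members in the order of their genes on the chloroplast genome; filled bars passed the edgeR test (adjusted p under 0.05) and members without a bar were not tested or are close to 0. Filled bars point down at trnS, psaA, trnF, rbcL and ndhH in both mutants and up at trnY in uap1-2 and WT.

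Mutant and WT were compared within each condition. Without cold, 0 members passed in uap1-1 against WT (background 0% higher and 0.00467% lower over all genes) and 0 in uap1-2 against WT (background 0% each way) by edgeR. At an unadjusted p under 0.05 there were 24 and 25 of the 86 members tested, where 9.15% and 5.38% of all genes were under it. DESeq2 called 2 in uap1-1 (ndhH and psaA) and 4 in uap1-2 (ndhH, psaA, trnF and trnG (ATCG00100)), of 31 genes it called in all in uap1-1 and 13 in uap1-2. The mutant over WT log2 fold change by edgeR was 2.33 (SE 0.48, adjusted p = 0.217) for psaA, 3.00 (SE 0.68, adjusted p = 0.278) for ndhH and 3.28 (SE 0.91, adjusted p = 0.339) for trnF in uap1-1. In uap1-2 it was 2.10 (SE 0.48, adjusted p = 0.431) for psaA, 3.21 (SE 0.68, adjusted p = 0.431) for ndhH and 4.06 (SE 0.93, adjusted p = 0.431) for trnF.
Groups did not overlap for 10 of the 100 members, all higher, in uap1-1 against WT control, where 2.15% of the genes tested were apart and higher. In uap1-2 against WT control this held for 5 of the 100 members, all higher, where the background was 0.705%. ndhF, ndhH and rps15 were among both, and the comparisons share the WT libraries. The median log2 fold change of the members was 0.49 in uap1-1 and 0.62 in uap1-2, against -0.03 and -0.03 over all genes.
In the cold, 0 members passed in uap1-1 or in uap1-2 against WT by edgeR (background 0% each way in both) and 0 by DESeq2, with 1 and 3 at an unadjusted p under 0.05 (2.71% and 4.73% of all genes). The medians were 0.22 and 0.04. Between uap1-2 and uap1-1, 0 members passed by edgeR without cold (background 0.00467% each way) or in the cold (background 0% each way), 0 passed by DESeq2, and 0 had an unadjusted p under 0.05 (6.32% of all genes without cold and 11.1% in the cold).
The difference between the cold response of a mutant and that of WT was tested directly. It passed for 0 members in uap1-1 and in uap1-2 by edgeR (background 0% each way in both) and for 0 by DESeq2, with 10 and 18 of the 86 members tested at an unadjusted p under 0.05. Over all genes 8.6% were under it in uap1-1, near the share of the members, and 1.73% in uap1-2, below that of the members. For psaA the difference was -1.80 (SE 0.67, adjusted p = 0.485) in uap1-1 and -2.19 (SE 0.67, adjusted p = 1) in uap1-2, and for ndhH -3.13 (SE 1.10, adjusted p = 0.481) and -3.33 (SE 1.09, adjusted p = 1). A gene that passed in a mutant and not in WT is therefore not shown to differ between the genotypes. Within the chloroplast total 0 members passed in each of these comparisons of genotypes and of cold responses. The background on that scale was 0.00467% lower in uap1-1 against WT control, 0.028% lower in uap1-2 against WT control, 0.00467% each way in uap1-2 against uap1-1 control and 0% otherwise. At an unadjusted p under 0.05 there were 14 members in uap1-1 and 18 in uap1-2 against WT control, where 9.02% and 20.5% of all genes were under it. The uap1-2 count is at the level of all genes, though that level also moves with the chloroplast total by which all genes are divided.

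Libraries of one group also differed in the make-up of their chloroplast RNA. In a principal component analysis of the 74 members with a count in every library, the first component held 31.6% of the variance and the second 21.7%. Among the genes named here, the first set rps3, rpoC1, rpl14, rpoA and rpoC2 against the rRNA rows. rps3, a small-subunit protein, held 0.221%, 0.445%, 2.01% and 0.936% of the chloroplast total in the 4 WT control libraries, and rrn23S (ATCG01180) 2.15%, 1.89%, 0.452% and 3.18%. Replicate 3 was highest for rps3 and lowest for rrn23S in that group.
The second component set ndhH, psbZ, trnS (ATCG00290), psaA and rbcL against psaJ and rpl32. The mutant control libraries had positive scores on it except replicate 2 of uap1-1 control, and the 4 WT control libraries had negative ones. In the cold, scores were negative except in replicate 2 of uap1-2 and replicate 4 of WT.

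**Figure D5:**
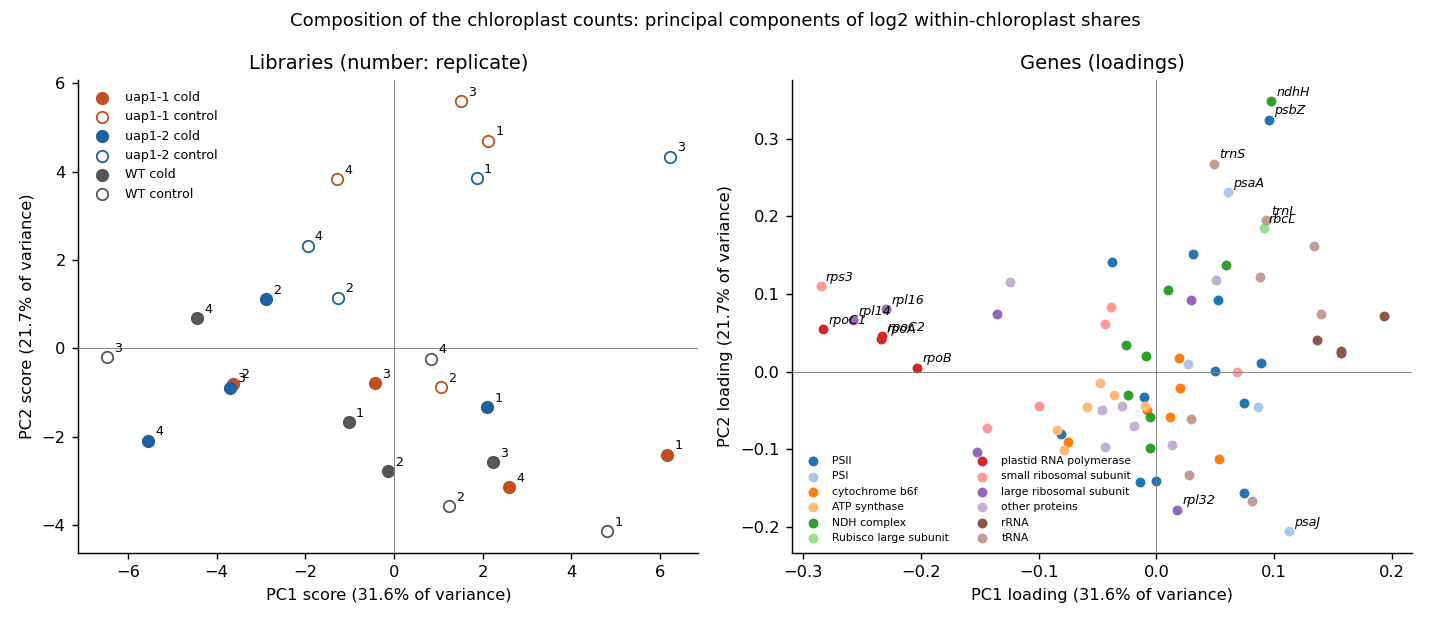
Principal components of the log2 share of each member in the chloroplast total, with libraries on the left (colour by genotype, filled cold, open control, number for the replicate) and the loadings of most of the genes on the right, coloured by role. Mutant control libraries lie above 0 on the second component (21.7% of variance) except replicate 2 of uap1-1, and libraries of each group are spread along the first (31.6%).

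Nuclear genes that work with the chloroplast genome were set beside the members. Of 26 nuclear genes for subunits of the same complexes, 8 fell in uap1-1, 21 in uap1-2 and 20 in WT after cold, and 0 rose. Among all genes tested 29.2%, 26% and 28.4% fell and 26.7%, 26.5% and 25.8% rose in uap1-1, uap1-2 and WT, so the uap1-1 count is near the background and those of uap1-2 and WT are above it. Their median log2 fold changes were -0.34 in uap1-1, -0.83 in uap1-2 and -0.91 in WT. Of 8 genes for the nuclear-encoded polymerases and for sigma factors, which guide the plastid-encoded polymerase to promoters, 3 rose in each genotype, and 2 fell in uap1-1, 1 in uap1-2 and 1 in WT. Of 12 proteins bound to the plastid-encoded polymerase 2 fell in each genotype and 0 rose. Of 19 plastid RNA-binding and RNA decay proteins 4 rose and 5 fell in uap1-1, 3 rose and 6 fell in uap1-2, and 4 rose and 3 fell in WT. In the comparisons of a mutant with WT, 0 genes of these lists passed by edgeR.
The 8 root markers summed to 102 to 131 CPM in uap1-1 cold and 109.5 to 154 CPM in uap1-1 control, 91.9 to 147 CPM in uap1-2 cold and 89.9 to 107 CPM in uap1-2 control, and 104 to 152 CPM in WT cold and 86.3 to 152 CPM in WT control, with 0 markers at 0 in any group. Of these markers 1 rose and 4 fell in uap1-1, 2 rose in uap1-2 and 3 rose in WT after cold. Most of the sums came from PHO1, SCR and SHR. IRT1 was as low as 0.0444 CPM in a WT control library, and EXPA7 0.0872 CPM in a uap1-2 control library. The part of the root markers in the chloroplast share was not tested.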

How the data were processed

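Poly(A) RNA was selected with oligo(dT) beads, and fragments were read in pairs, per the labels' protocols. HTSeq 0.6.1 and HISAT2 2.2.1 stand in the submitters' processing notes, beside other tools and the build TAIR10, without settings. The deposited table holds raw read counts per gene for each library and, beside them, FPKM values that the authors scaled by exonic length and library total. Recomputing FPKM from the counts and the deposited lengths gave a highest difference of 0.005.

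Counts of all genes were fitted with edgeR 4.0.16 (R 4.3.3; TMM scaling, quasi-likelihood test, Benjamini-Hochberg adjusted p under 0.05) over all 6 groups and 21428 genes, those past edgeR's filter on expression (count 10, total 15). A second fit used the chloroplast total as library size. CPM in the text are TMM-scaled, and shares of library use plain totals. The scripts were tested on simulated data. Alternatives were library totals, TMM without organelle rows, no filter, DESeq2 1.42.0, a replicate block, a chloroplast total without psbA and rbcL, and leaving out libraries. Counting intervals cover counting error only.

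The members and lists were chosen with earlier results of these data known. Genes were named by rule: psbA, rbcL, accD, clpP, rpoB and matK, the 2 members of each role with the highest mean share of the chloroplast total, the 3 called members with the largest rise and fall in each comparison, and the rows beside the threshold; some were given by counts only. psbD, psbC, psbZ and psbM were singled out after their values were seen. Some members are counted but not reported here by name. The windows and tRNA genes shown were also chosen after values were seen.

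Replicate numbers were checked for pairing by correlating deviations from group means. Only in the cold, between uap1-2 and uap1-1, was every same-numbered correlation over 0.1 (0.609, 0.623, 0.3 and 0.404), so numbers pair the libraries there, as a hint from the data. The blocked fit called 0 members there, as did the fit without the block. No pair of replicates agreed within sampling noise.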

Additional observations from a re-analysis of the deposited data

Results flagged for a closer look

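In groups of 4 libraries, 1 value was flagged where its gap to the nearest other value exceeded Dixon's critical share of the group's range. Over 216 groups of values from 36 measures 19 were flagged. Chance flags about 1 in 20 among continuous values, a rate that does not hold for the counts near 0 here. A value above 0 beside others that are all 0 is always flagged, as for rps15 in uap1-1 cold and WT cold and trnY in WT control.

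In uap1-1 cold, replicate 1 was high for rrn23S (ATCG01180) at 17.04 CPM (others 4.471 to 6.274), for trnG (ATCG00100) at 1.794 CPM (others 0.7865 to 0.9263) and for trnY at 1.794 CPM (others 0.2898 to 0.521). Replicate 2 was high for rpl16 at 7.70 CPM (others 1.474 to 2.2) and for rps15 at 0.207 CPM (others 0). Replicate 3 was low for trnP at 0 CPM (others 0.1656 to 0.1922).

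In uap1-1 control, replicate 1 was high for nuclear rRNA at 0.1707% of the library (others 0.02777% to 0.04289%). Replicate 2 was low for rps3 at 2.239 CPM (others 5.127 to 5.698). Replicate 3 was high for trnV (ATCG00450) at 4.679 CPM (others 1.696 to 1.953).

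In uap1-2 cold, replicate 1 was high for psaJ at 18.7 CPM (others 9.312 to 10.53), and replicate 2 for rpoB at 54.88 CPM (others 27.07 to 29.88). In uap1-2 control, replicate 3 was high for accD at 1.79 CPM (others 0.6543 to 0.7346), for petA at 8.74 CPM (others 4.122 to 4.485) and for trnP at 2.039 CPM (others 0.4264 to 0.6186). Replicate 2 was low for rps15 at 0.1777 CPM (others 0.7416 to 0.8324).

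In WT cold, replicate 4 was low for nuclear rRNA at 0.01574% of the library (others 0.02976% to 0.03205%), and replicate 1 was high for rps15 at 0.0472 CPM (others 0). In WT control, replicate 4 was high for ndhH at 0.6653 CPM (others 0.08519 to 0.176) and for trnY at 0.08871 CPM (others 0).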

How the results depend on the processing

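0 of the results reversed direction under any alternative. With library totals in place of TMM, 59 members were called in uap1-1 cold against control, and the median over all genes on the log2 scale was -0.50 in uap1-1, -0.20 in uap1-2 and -0.27 in WT. With no filter on low counts, calls within the chloroplast total were 2 in WT cold against control (trnfM and trnY), 2 in uap1-1 against WT control (psaA and trnF) and 1 in uap1-2 against WT control (trnF). The replicate block gave 2 calls within the total in WT cold (trnT (ATCG00390) and trnY), and it moved no other count of called members by over 1.5 times. With the block, the calls of rbcL in WT (adjusted p = 0.0589), trnP in uap1-2 (adjusted p = 0.0559) and trnS (ATCG00290) within the total in uap1-1 (adjusted p = 0.0738) were lost, and no other named gene's was. A chloroplast total without psbA and rbcL gave 1 call within the total in uap1-1 against WT control (psaA). DESeq2 called 2 members in uap1-1 and 4 in uap1-2 against WT control, of 31 and 13 genes called in all. Without control replicates 1 and 3 of the mutant, chosen after seeing the data, 4 members were called in uap1-1 cold and 12 in uap1-2 cold, and 3 and 1 within the total. The cause was not tested.

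Leaving out 1 library at a time gave 17 to 39 calls in uap1-1 cold, 32 to 53 in uap1-2 cold and 6 to 19 in WT cold. Within the total it gave 3 to 11 in uap1-1 cold, 7 to 15 in uap1-2 cold, 1 to 4 in WT cold, 0 to 1 in uap1-1 against WT control and 0 to 14 in uap1-2 against WT control, where the 14 came without uap1-2 control replicate 2. Every other comparison of genotypes or cold responses gave 0 calls in each such fit. Libraries held 3663 to 25896 chloroplast counts, and 14 members had too few to be tested.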
